A study of Mus musculus with 6 samples.

Results

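The 4 Hox clusters were followed in pre-B cells, the precursors of antibody-producing B cells, of E17.5 mouse embryos with and without Smchd1. The Hox members were all probes of the array table whose name was Hoxa, Hoxb, Hoxc or Hoxd with a number from 1 to 13, whatever their signal. This took 57 of the 45281 probes on the array and covered 39 of its 30774 gene names, 26 of them with 1 probe and 13 with several. HoxA had 20 probes on chromosome 6, HoxB 15 on chromosome 11, HoxC 11 on chromosome 15 and HoxD 11 on chromosome 2.

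All embryos were C57BL/6 and carried the Eµ-Myc transgene, in which the immunoglobulin heavy chain enhancer switches on Myc throughout the B lineage. The Smchd1 wildtype group had 3 arrays, and the Smchd1 null group had 3 arrays from cells that were in addition homozygous for a gene trap allele of Smchd1. Cells were taken fresh and sorted, and all 6 arrays lay on 1 BeadChip. Organ, gate and pooling of embryos are not given, and the spread behind each p-value may therefore be technical.

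Hox genes encode homeodomain transcription factors that give cells positional identity along the body axis. Within a cluster the genes are numbered in their order on the chromosome, and those with low numbers are switched on earlier and nearer the head. In blood, genes of the middle of HoxA and HoxB, with their partners of the Meis and Pbx families, are active in stem and progenitor cells and are turned down as cells mature. Silent clusters are covered by Polycomb complexes, and Smchd1 is a chromatin protein that takes part in gene silencing and in the long-range contacts of Hox clusters in mouse cells.

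The brightest of the 5 Smchd1 probes had normalized log2 intensities of 9.50 to 9.67 in wildtype and was not detected on any null array, at 4.64 to 5.03, at least 22.3-fold lower (limma adjusted p = 5.6e-05). Between 33.8% and 36.3% of all probes were detected per array, which means a detection p under 0.05 against the 936 negative control probes. Smchd1 null replicate 3 stood apart, with r of 0.946 to 0.956 to the other arrays over the tested probes, where the other pairs lay at 0.984 to 0.994. Of 9 B lineage markers on the array 7 were detected on all 6 arrays, while Dntt was detected on none and Pax5 on 1.

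The bases upstream of the start are shown for Hoxa7, the Hox gene with the largest difference between the groups, for Hoxa5 and Hoxa9 of the same stretch of the cluster, which were detected on a single array, and for Hoxa13, of which 1 of 3 probes was detected on all 6 arrays. These are 250 bases before the start of each gene in RefSeq (GRCm38.p6), written 5′ to 3′ along the gene. All 4 genes lie on the minus strand, at chr6:52204588-52204837 for Hoxa5, chr6:52218574-52218823 for Hoxa7, chr6:52227371-52227620 for Hoxa9 and chr6:52260881-52261130 for Hoxa13. Capitals mark CG pairs, the sites of DNA methylation in mammals.
Hoxa5: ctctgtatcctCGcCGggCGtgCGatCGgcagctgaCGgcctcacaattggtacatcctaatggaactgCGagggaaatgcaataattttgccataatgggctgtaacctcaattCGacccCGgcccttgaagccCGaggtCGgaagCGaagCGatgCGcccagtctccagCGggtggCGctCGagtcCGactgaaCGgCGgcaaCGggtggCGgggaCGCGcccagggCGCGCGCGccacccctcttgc
Hoxa7: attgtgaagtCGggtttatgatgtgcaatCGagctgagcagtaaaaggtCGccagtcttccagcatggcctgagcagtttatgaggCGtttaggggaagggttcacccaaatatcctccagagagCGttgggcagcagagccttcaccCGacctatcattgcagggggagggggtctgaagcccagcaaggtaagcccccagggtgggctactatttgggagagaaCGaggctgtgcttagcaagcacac
Hoxa9: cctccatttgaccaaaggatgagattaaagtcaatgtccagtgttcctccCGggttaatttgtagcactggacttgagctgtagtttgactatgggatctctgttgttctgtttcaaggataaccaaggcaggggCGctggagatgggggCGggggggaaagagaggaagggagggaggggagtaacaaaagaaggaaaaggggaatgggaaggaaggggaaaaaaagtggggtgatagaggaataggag
Hoxa13: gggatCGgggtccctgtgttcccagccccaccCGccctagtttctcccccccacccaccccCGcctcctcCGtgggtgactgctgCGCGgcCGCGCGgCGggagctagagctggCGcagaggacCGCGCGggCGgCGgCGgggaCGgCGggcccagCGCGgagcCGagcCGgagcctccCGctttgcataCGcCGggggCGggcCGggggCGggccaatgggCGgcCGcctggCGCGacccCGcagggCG

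The Hoxa7 window held 7 CG pairs and the Hoxa9 window 3, whereas those of Hoxa5 and Hoxa13 held 28 and 35. RefSeq windows were matched for 22 of the 39 genes, 24 windows in all, with a median of 12.5 CG pairs and a range of 2 to 35. Over all 32841 promoter windows of this length the median was 6 pairs. The homeodomain core TAAT, read on both strands, was found in 18 of the 24 Hox windows, or 75%, and in 54.9% of all windows. It occurred 3 times in the Hoxa5 window, 2 times in that of Hoxa9 and was not found in those of Hoxa7 and Hoxa13.

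Most Hox probes lay at background in both genotypes. Of the 57 probes 41 were not detected on any array, 11 were detected on 1 or 2 arrays, 2 on 3 or 4, and 3 on all 6, namely Hoxa7, Hoxa4 and 1 of the 3 probes of Hoxa13. The median normalized log2 intensity of the Hox probes was 4.61 to 4.64 on the 6 arrays, next to medians of 4.59 to 4.62 for the negative controls. Between 4 and 8 Hox probes were detected per array, 7.02% to 14% of them. By the definition of the threshold 5% of negative controls pass it. Without the 3 steadily detected probes, 20 of 324 readings, or 6.17%, passed. The calls were 8, 5 and 8 in wildtype replicates 1, 2 and 3 and 5, 4 and 8 in null replicates 1, 2 and 3, so the groups overlapped.

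**Figure D1:**
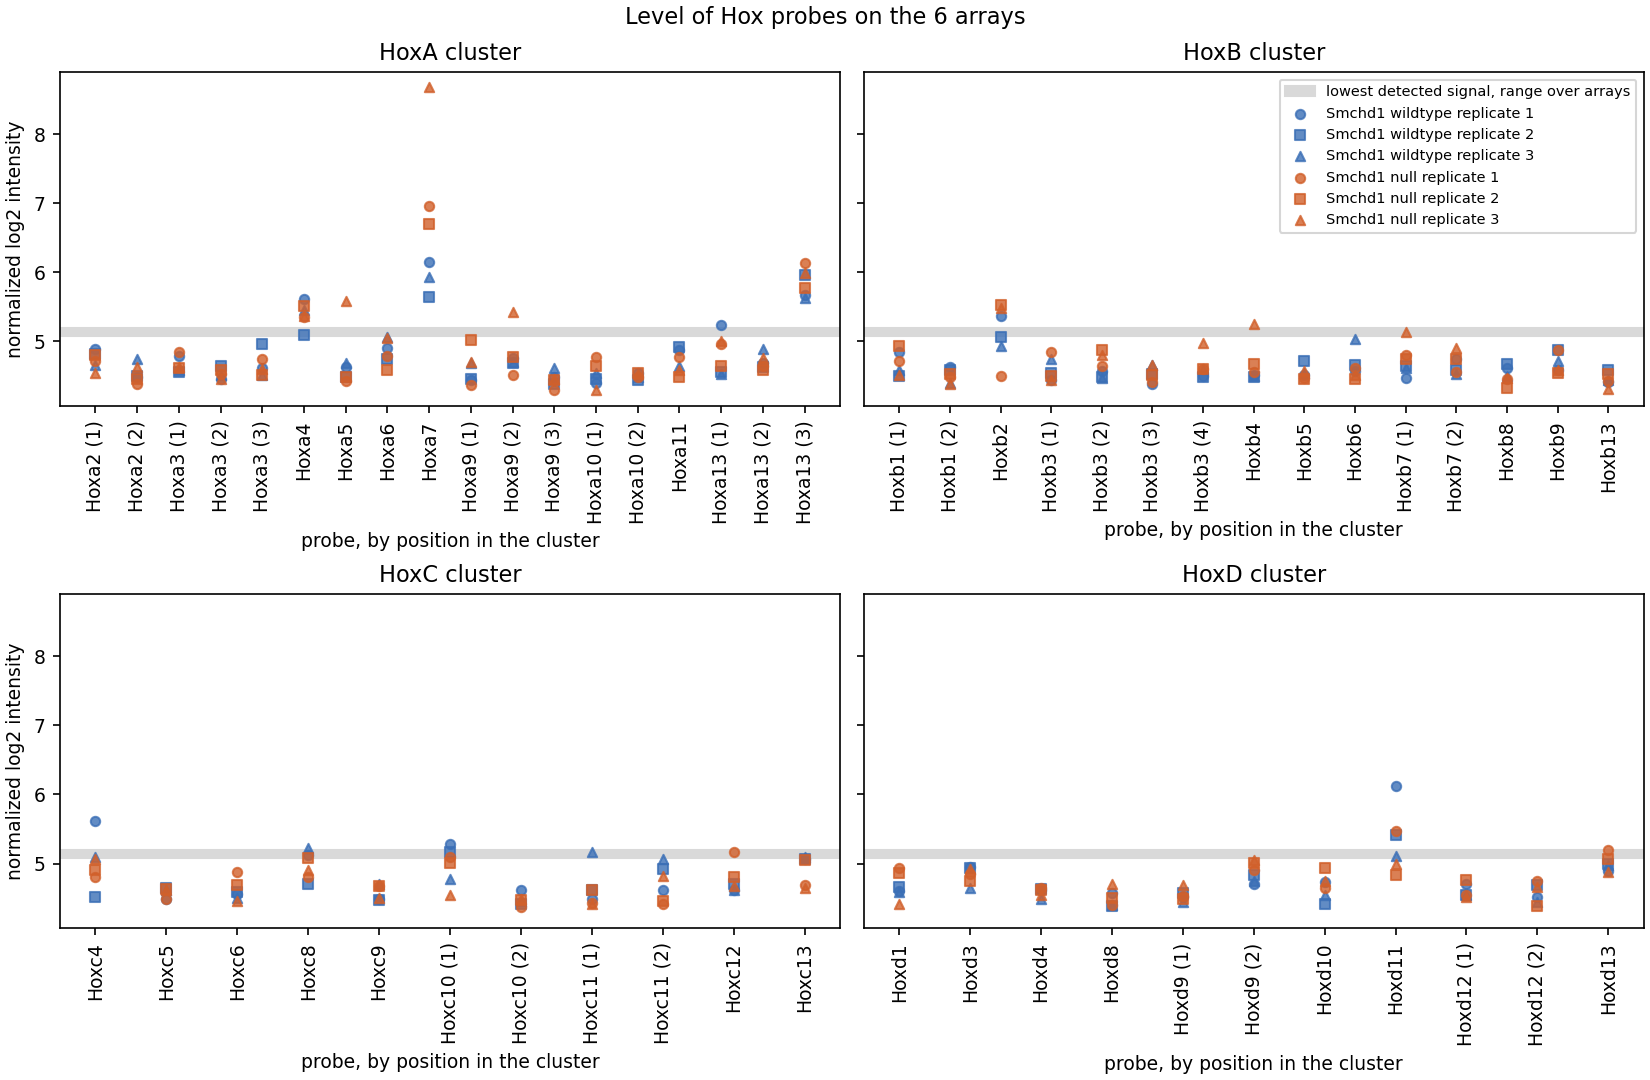
Normalized log2 intensity (y axis) of 55 of the 57 Hox probes, arranged by cluster and by position in the cluster (x axis), with 1 point per array, blue for wildtype and orange for Smchd1 null. The grey band spans the lowest detected signal of the 6 arrays, 5.08 to 5.19; most probes lie under it, and Hoxa7 lies above it on all arrays, up to 8.68 in null replicate 3.

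By position, the middle of the clusters held the largest share of detected readings. At positions 4 to 8, 18 of 96 readings were detected (18.8%), at positions 9 to 13 17 of 150 (11.3%) and at positions 1 to 3 there were 3 of 96. Of the 18 in the middle, 12 came from Hoxa4 and Hoxa7. Without the 3 probes detected on all 6 arrays, the order of the first pair turned, with 6 of 84 readings (7.14%) at positions 4 to 8 and 11 of 144 (7.64%) at positions 9 to 13. By cluster 21 of 120 readings were detected in HoxA, and the share was 5.56% in HoxB, 10.6% in HoxC and 7.58% in HoxD. In HoxA 3 probes gave 18 of the 21 detected readings.

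**Figure D2:**
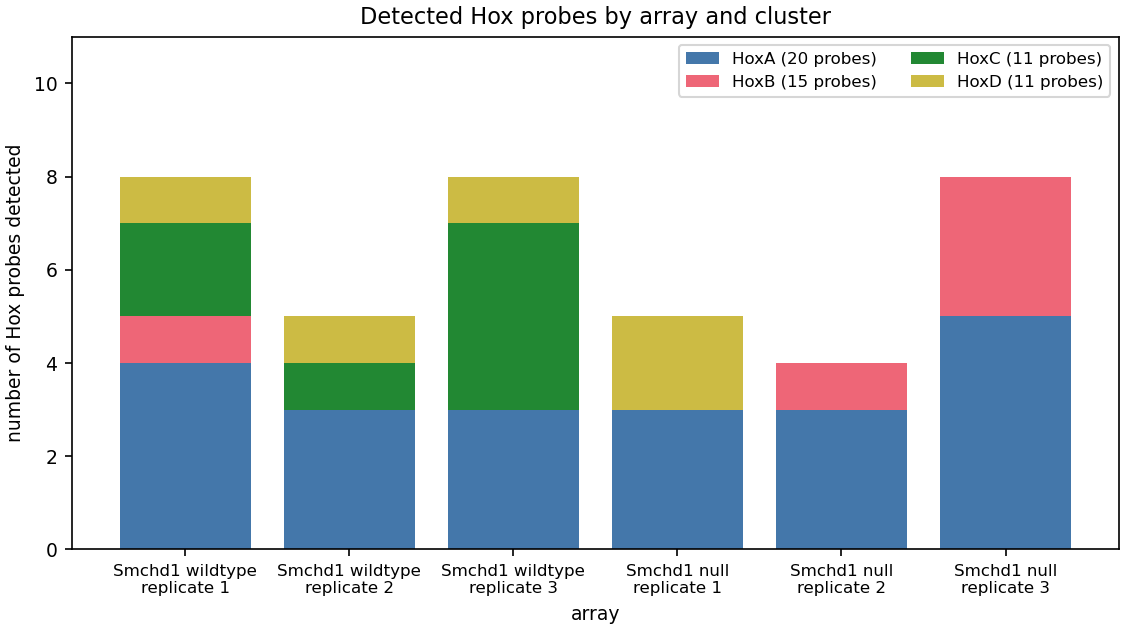
Number of detected Hox probes (y axis, detection p under 0.05) on each array (x axis), stacked by cluster. The totals run from 4 to 8; HoxC probes were detected on the 3 wildtype arrays only, with 2, 1 and 4 calls, and null replicate 3 had the most HoxA and HoxB calls, 5 and 3.

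None of the 5 Hox probes that were detected on at least 3 arrays and so entered the test passed limma's adjusted p threshold of 0.05. Over all 15878 tested probes 9 passed, or 0.0567%, with 0.0126% higher and 0.0441% lower in Smchd1 null. At an unadjusted p under 0.05 there was 1 of the 5, Hoxa7, where 4.04% of all tested probes reached this and 1.91% did so with a higher mean in Smchd1 null. The groups did not overlap for 1 of the 5, again Hoxa7, against 9.61% of all tested probes. The 5 had 4 higher means and 1 lower mean in Smchd1 null and a median log2 difference of 0.05, against -0.02 over all tested probes.

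Hoxa7, a gene of the middle of HoxA that is active in early blood progenitors, was higher in each Smchd1 null array than in each wildtype array. Its normalized log2 intensity was 6.15, 5.65 and 5.93 in wildtype replicates 1, 2 and 3. In Smchd1 null it was 6.96, 6.70 and 8.68 in replicates 1, 2 and 3. Null replicate 3 was far above the rest, and the gap between the groups lay between 6.15 and 6.70.

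The unnormalized bead intensities of Hoxa7 were 193.6 (bead SE 6.27, 44 beads), 213 (SE 4.90, 40 beads) and 201.1 (SE 6.01, 45 beads) in the wildtype arrays. In Smchd1 null they were 222.2 (SE 9.03, 42 beads), 236.2 (SE 6.85, 38 beads) and 511.3 (SE 25, 35 beads). The groups did not overlap before normalization either, but null replicate 1, at 222.2, and wildtype replicate 2, at 213, differed by little more than the larger of their bead SEs. The negative controls averaged 140.5 on the former array and 165.9 on the latter.

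The group means were 5.91 ± 0.25 (SD, n = 3) for the wildtype arrays and 7.45 ± 1.08 (SD, n = 3) for the null arrays, 2.90-fold apart. The log2 difference was 1.54 (SE 0.49, 95% interval 0.38 to 2.69, limma unadjusted p = 0.0158, adjusted p = 0.934). A difference this large upwards was reached by 13 of the 15878 tested probes, 0.0819%. Without null replicate 3 the difference was 0.92 (SE 0.18, limma adjusted p = 0.22). None of the 5 Hox probes passed with any 1 array left out, where the share of all tested probes that passed was 0.258% without null replicate 3, 0.0189% without null replicate 1, 0.0252% without wildtype replicate 1, and 0.0126% without null replicate 2, wildtype replicate 2 or wildtype replicate 3. When the arrays were scaled to a common median in place of quantile normalization it was 1.39 (SE 0.34) and passed, with a limma adjusted p of 0.0276, as did 0.353% of all tested probes. That scaling moved the median of all tested probes to -0.18, relative to which Hoxa7 stood at 1.57, against 1.55 before.

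**Figure D3:**
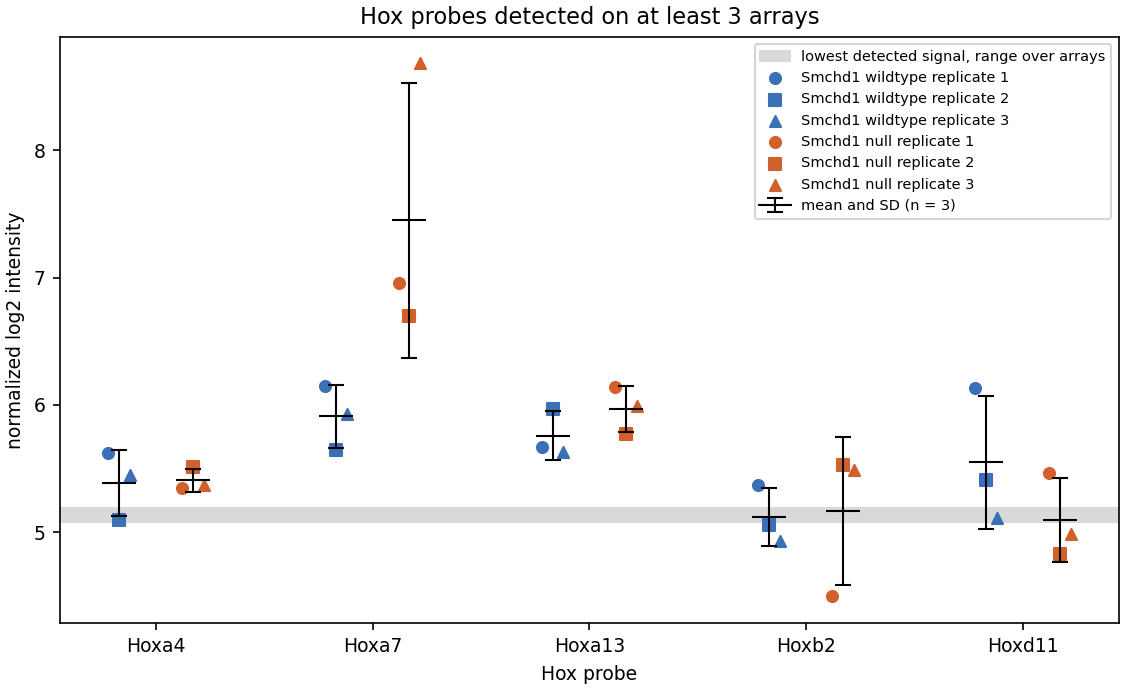
Normalized log2 intensity (y axis) of the 5 Hox probes detected on at least 3 arrays (x axis), 1 point per array with the group mean and SD in black (n = 3); the grey band is the range of the lowest detected signal. The groups are apart for Hoxa7, at 5.65 to 6.15 against 6.70 to 8.68, and overlap for the other 4 probes.

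No other HoxA probe had all null arrays above all wildtype arrays. Hoxa4, a gene of the middle of the cluster, had normalized log2 intensities of 5.62, 5.10 and 5.45 in wildtype and 5.35, 5.51 and 5.37 in Smchd1 null. The null values lay within the wildtype range, and the log2 difference was 0.02 (SE 0.17, 95% interval -0.39 to 0.42, limma adjusted p = 0.991).

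Hoxa13, the last gene of the cluster, which patterns limb ends and the hindgut, was read by 3 probes that disagreed. The probe detected on all 6 arrays had 5.67, 5.97 and 5.63 in wildtype and 6.14, 5.77 and 5.99 in Smchd1 null, with overlapping groups and a log2 difference of 0.21 (SE 0.17, 95% interval -0.18 to 0.60, limma adjusted p = 0.934). The second was detected on wildtype replicate 1 only, at 5.24, and the third on no array, so the steady signal rests on 1 probe of the gene.

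Hoxa5 and Hoxa9, on either side of Hoxa7 and Hoxa6, were each detected on null replicate 3 only. Hoxa5 had a normalized log2 intensity of 5.59 there and 4.43 to 4.69 on the other 5 arrays. One of the 3 probes of Hoxa9, a gene required for normal lymphoid and myeloid progenitors in mice, had 5.43 there and 4.52 to 4.77 elsewhere. The other 2 Hoxa9 probes were not detected on any array. Neither was Hoxa6, which lies between Hoxa5 and Hoxa7 and had 4.58 to 5.07. Null replicates 1 and 2, where Hoxa7 was also above wildtype, had no signal of Hoxa5, Hoxa6 or Hoxa9 above background.

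Hoxa2, Hoxa3, Hoxa10 and Hoxa11, which pattern hindbrain, vertebrae, limbs and the reproductive tract, were not detected by any of their 8 probes on any array. HOXA11S, which the rule leaves out and RefSeq lists as the long noncoding RNA Hoxa11os, was detected on wildtype replicate 1 only, at 5.22.

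In HoxB, 12 of 15 probes were not detected on any array. Hoxb2, a regulator of hindbrain segments, was detected on wildtype replicate 1 at 5.37 and on null replicates 2 and 3 at 5.53 and 5.49, and lay at 5.06, 4.93 and 4.50 on the arrays without detection. The groups overlapped, and the log2 difference was 0.05 (SE 0.29, 95% interval -0.64 to 0.74, limma adjusted p = 0.984). Its sign turned to -0.11 without null replicate 3.

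Hoxb4, which enlarges the stem cell pool when overexpressed in mouse blood, was detected on null replicate 3 only, at 5.26, and lay at 4.48 to 4.67 elsewhere. One of the 2 Hoxb7 probes was also detected on that array only, at 5.13 against 4.47 to 4.80 elsewhere. Null replicate 3 was thus the single array to detect Hoxa5, Hoxa9, Hoxb4 and Hoxb7. At a detection p under 0.01 the calls of Hoxa5 and Hoxa9 remained and those of Hoxb4 and Hoxb7 did not.

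In HoxC all 7 detected readings came from wildtype arrays, and no probe entered the test, so this split was not tested. Hoxc4 was detected on wildtype replicates 1 and 3, at 5.62 and 5.10, and lay at 4.51 on replicate 2 and 4.80 to 5.06 in Smchd1 null. Hoxc10, a gene of the hindlimb and lumbar region, was detected by 1 of its 2 probes on wildtype replicates 1 and 2, at 5.28 and 5.16, with 4.54 to 5.09 in Smchd1 null. Hoxc8, Hoxc11 and Hoxc13, the last a regulator of hair and nail, were each detected on wildtype replicate 3 alone, at 5.22, 5.17 and 5.09. At a detection p under 0.01 a single HoxC reading remained, that of Hoxc4 on wildtype replicate 1. The groups overlapped for all 11 HoxC probes except Hoxc13, at 5.06, 5.07 and 5.09 in wildtype and 4.69, 5.05 and 4.64 in Smchd1 null.

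In HoxD 9 of 11 probes were not detected on any array. Hoxd11, which patterns the forearm and kidney together with Hoxa11, had 6.13, 5.41 and 5.11 in wildtype, all detected, and 5.47, 4.83 and 4.99 in Smchd1 null, of which replicate 1 was detected. The groups overlapped, and the means were 5.55 ± 0.52 (SD, n = 3) for wildtype and 5.10 ± 0.33 (SD, n = 3). The log2 difference was -0.45 (SE 0.29, 95% interval -1.14 to 0.24, limma adjusted p = 0.934). It was -0.16 without wildtype replicate 1 and -0.12 with no background correction. Hoxd13, which patterns the digits, was detected on null replicate 1 only, at 5.20, with 4.88 to 5.06 elsewhere.

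Over all 57 probes, with no regard to detection, the means were higher in Smchd1 null for 31 and lower for 26, and the median log2 difference was 0.02. Apart from Hoxa7 and Hoxd11, no probe differed by more than 0.33 in either direction. The groups did not overlap for 6 probes higher in Smchd1 null (10.5%, against 4.85% of all probes on the array) and 3 lower (5.26%, against 4.54%), where 9.39% of all probes had groups apart in either direction. The 6 were Hoxa7, 2 of the 4 Hoxb3 probes, Hoxb4, 1 Hoxb7 probe and 1 Hoxd9 probe. Of these only Hoxa7 was detected on more than 1 array, and Hoxb3 and Hoxd9 were detected on none. Hoxb8 and Hoxc13 were among the 3.

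In the limma fit without a detection filter, 4 of the 57 had an unadjusted p under 0.05 (7.02%, against 4.09% of all probes) and none passed after adjustment, where 0.0133% of all probes did. Without null replicate 3 the groups, now 3 against 2, did not overlap for 11 probes higher (19.3%, against 10.9% of all probes) and 8 lower (14%, against 9.97%), and the median log2 difference was 0.

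**Figure D4:**
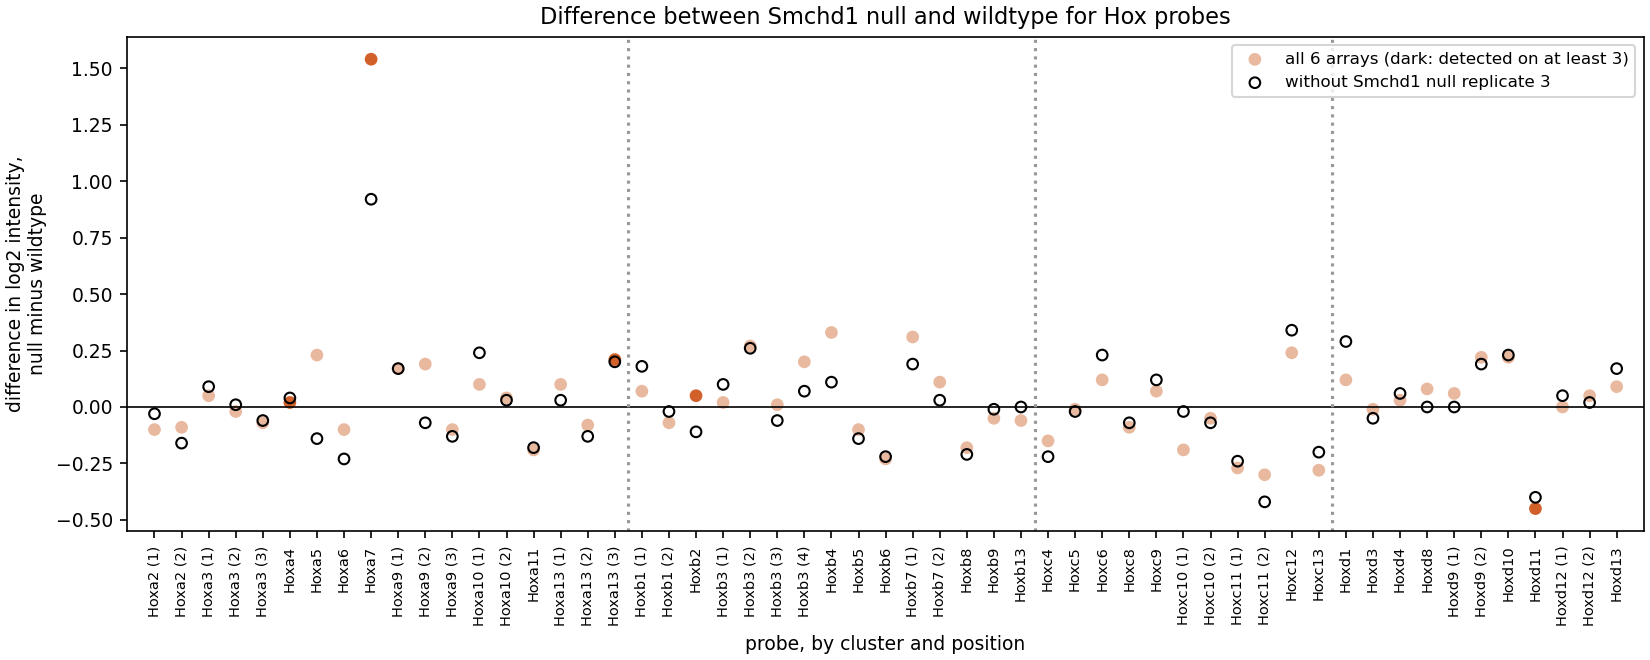
Difference in normalized log2 intensity between Smchd1 null and wildtype (y axis) for 55 of the 57 Hox probes in order of cluster and position (x axis; dotted lines separate the clusters). Filled points use all 6 arrays, dark where the probe was detected on at least 3 of them, and open circles leave out null replicate 3. Hoxa7 stands at 1.54, or 0.92 without that array, and Hoxd11 at -0.45; the others lie within 0.33 of 0 with all arrays.

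The partners of Hox proteins on DNA were followed beside them. Of 9 Meis, Pbx and Pknox genes on the array 4 were tested, with 3 higher and 1 lower mean in Smchd1 null, and none passed (limma adjusted p of 0.934 or above). Meis1, the cofactor that acts with Hoxa7 and Hoxa9 in progenitors and leukaemia, had normalized log2 intensities of 7.08, 7.16 and 7.07 in wildtype and 7.31, 7.66 and 8.23 in Smchd1 null. As for Hoxa7, every null value was above every wildtype value, as for 4.52% of all tested probes, and null replicate 3 was the highest. The log2 difference of Meis1 was 0.63 (SE 0.24, limma unadjusted p = 0.0306, adjusted p = 0.934), and 0.38 without null replicate 3. Pbx4 had a log2 difference of 0.23 (SE 0.28) and Pbx2 one of 0.10 (SE 0.18), which turned to -0.03 without null replicate 3. No probe of Meis2 or Meis3 was detected, and those of Pbx3 were detected on at most 1 array.

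Of 21 activators of Hox transcription 17 were tested and none passed, with 4 higher and 13 lower means. The median log2 difference of the 17 was -0.09, or -0.03 without null replicate 3, against -0.02 and 0 over all tested probes. Of all probes on the array, tested or not, 49.7% had a higher mean in Smchd1 null. Kmt2a (Mll1), the histone methyltransferase that keeps Hox genes on, was detected on all arrays at 9.78 to 10.21 and had a log2 difference of 0.02 (SE 0.16), or -0.04 without null replicate 3. The smallest p-values belonged to Mllt10, at -0.63 (SE 0.27), Msl2, at -0.65 (SE 0.32), and the histone demethylase gene Kdm6b, at -0.37 (SE 0.20). Without null replicate 3 these were -0.68 for Mllt10, -0.27 for Msl2 and -0.16 for Kdm6b. The homeobox genes Cdx1, Cdx2 and Cdx4, which switch on Hox genes in the early embryo, were not detected.

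Of 22 Polycomb genes 17 were tested and none passed, with 5 higher and 12 lower means. The median log2 difference of the 17 was -0.09, or -0.07 without null replicate 3. Ezh2, the methyltransferase of Polycomb repressive complex 2, had 0.09 (SE 0.28), and its partners Suz12 and Eed had -0.09 (SE 0.13) and -0.12 (SE 0.18). The smallest p-values were those of Ezh1, at -0.36 (SE 0.20), Cbx7, at -0.24 (SE 0.19), and Phc2, at -0.15 (SE 0.13). Without null replicate 3 Ezh1 had -0.19, and the signs of Ezh2 and Eed turned, to -0.11 and 0.04.

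The genes that flank the clusters were followed as well. Of 34 protein-coding neighbours 31 were on the array and 21 tested, and none passed, with 12 higher and 9 lower means and a median log2 difference of 0.02, or -0.07 without null replicate 3. Beside HoxA, the adaptor gene Skap2 had normalized log2 intensities of 9.75 to 10.31 and a difference of 0.14 (SE 0.18), which turned to -0.03 without null replicate 3, the array at 10.31. Beside HoxC, Cbx5, which encodes the heterochromatin protein HP1 alpha, lay at 8.69 to 9.35 with a difference of -0.22 (SE 0.19). The smallest p-values were those of Copz2 (0.32, SE 0.18), Agps (-0.19, SE 0.13) and Nfe2l1 (0.22, SE 0.16). Of the Evx and noncoding genes inside or at the ends of the clusters 4 were on the array and none was tested. Evx1, at the Hoxa13 end of HoxA, was detected on 2 arrays and Evx2, at the Hoxd13 end of HoxD, on none.

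The arrays also differed in markers of the B lineage itself and of other cells. In null replicate 3 the progenitor marker Kit lay at 10.78, against 6.91 to 7.14 in wildtype and 6.28 and 6.26 in the other null arrays. Cd34 lay at 6.36 there and at 4.44 to 4.97 elsewhere, below detection. The surrogate light chain genes of early pre-B cells, Vpreb1 and Igll1, were at 13.95 and 14.56 there, against 11.07 to 11.73 and 11.96 to 12.73 on the other arrays. The summed normalized intensity of the 9 B lineage markers was 20946 to 21940 in wildtype and 18382, 20386 and 58448 in null replicates 1, 2 and 3. That of the 10 stem and progenitor markers was 518 to 543 in wildtype and 481, 537 and 2450 in null replicates 1, 2 and 3. Kit alone made up 1760 of the 2450. Null replicate 3 was the highest array for 6 of the 10, with Flt3, Hlf, Mecom and Mycn as the other 4, and Flt3 lay at 4.82 there and at 5.04 to 5.45 in wildtype. Meis1, described above as a cofactor, is also among the 10 markers and among these 6. Of these stem and progenitor markers 3 were detected on all arrays and Gata2 and Mycn on none.

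In null replicates 1 and 2, where Hoxa7 and Meis1 were above wildtype, Kit, Vpreb1 and Igll1 were below wildtype. Myeloid markers, whose early cells also use HoxA genes, summed to 4894 to 13260 in wildtype and 1756, 2219 and 11842 in null replicates 1, 2 and 3, with 7 of 9 detected on all arrays and Itgam on none. Mpo lay at 12.06 in null replicate 3, at 5.05, below detection, in both other null arrays and at 7.63 to 9.83 in wildtype. Null replicate 3 was the highest array for 2 of the 9 myeloid markers, Mpo and Csf1r, and lay below the highest wildtype value for Lyz2, Ltf, Ngp, Camp, S100a8 and S100a9, with 9.15 against up to 10.27 for Ltf. Of 10 mesenchymal markers, whose cells use posterior Hox genes, none was detected on all arrays and 5 on none, Col1a1, Col3a1, Dcn, Pdgfrb and Twist1, with sums of 279 to 304 and 276 to 316. Hepatocyte markers summed to 1810 to 2987 in wildtype and 251 to 593 in Smchd1 null, with Alb and Fgb detected on no array. Of the 8 tested 4 fell (limma, adjusted p under 0.05), where 0.0441% of all tested probes did. Erythroid markers summed to 22490 to 38238 in wildtype and 15236, 43628 and 55553 in null replicates 1, 2 and 3, and those of T and NK cells to 412 to 519 and to 409, 705 and 211. The part of these cells in the Hoxa7 values was not tested, and in sorted bulk cells a change in the share of cells that express a gene and a change per cell cannot be told apart.

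**Figure D5:**
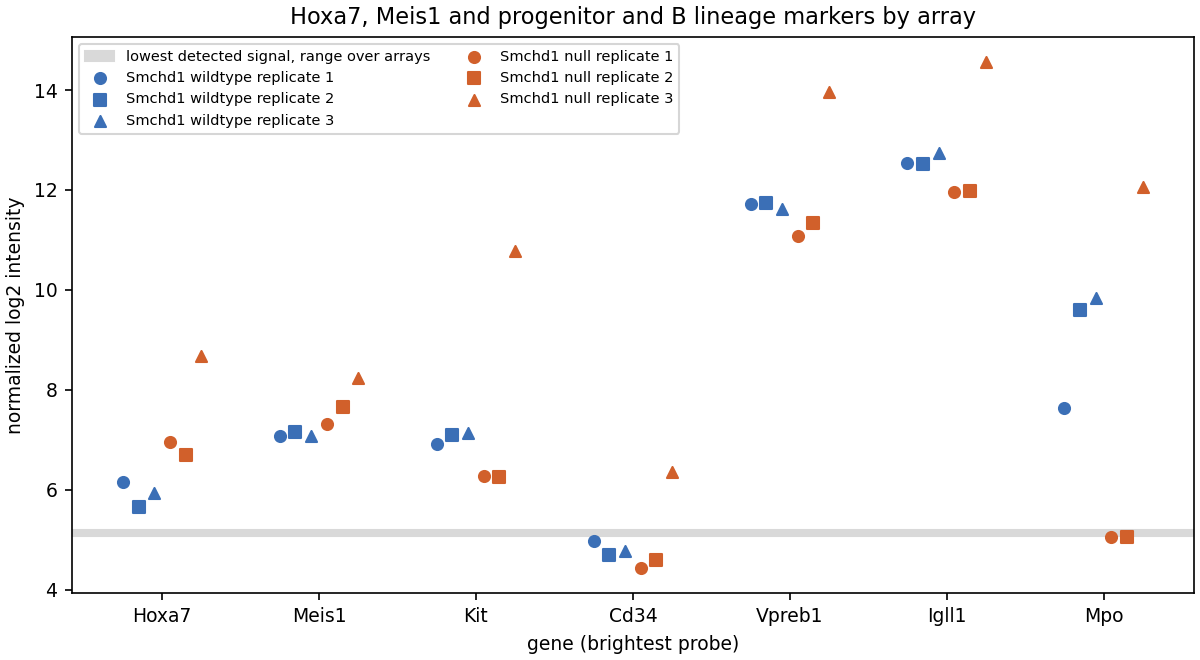
Normalized log2 intensity (y axis) of Hoxa7, its cofactor gene Meis1, the progenitor markers Kit and Cd34, the surrogate light chain genes Vpreb1 and Igll1 and the myeloid marker Mpo (x axis), 1 point per array. Null replicate 3 is the highest array for all 7 genes, while null replicates 1 and 2 lie above wildtype for Hoxa7 and Meis1 and below it for Kit, Vpreb1, Igll1 and Mpo.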

How the data were processed

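Illumina MouseWG-6 v2 arrays of 6 samples were used. Each deposited intensity is the mean over a probe's beads, which GenomeStudio 1.8.0 wrote out unnormalized, as stated per the file headers. The deposited detection p-value of a probe compares it with the negative controls, and the probe table holds the deposited fraction, 1 minus that p-value. The authors' log2 values came from limma's neqc (normexp correction, quantile normalization), per a deposited note with the commands, and limma 3.12.1 is named in the submitters' processing notes. They had medians of 4.78, and the same steps run here gave values within 5e-09 of them.

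Here neqc (limma 3.58.1, R 4.3.3, 936 negative controls, offset 16) was followed by lmFit and eBayes, two-sided, 3 against 3, with Benjamini-Hochberg adjustment over the 15878 probes with detection p under 0.05 on at least 3 arrays. Genes outside the clusters were represented by their brightest tested probe. Up to 3 tested genes per list with the smallest p were named by rule; Kmt2a, Ezh2, Suz12, Eed, Skap2, Cbx5, Cdx and Evx genes and the markers were named for their role after their values were seen. The fit was tested on simulated data with independent normal noise of the same spread on all arrays. No array stood apart there as null replicate 3 does, so the simulation does not cover that case. Hox probes had 19 to 65 beads per array, and the number of arrays limits the precision. The members and lists were chosen with earlier results of these data known. Names and promoters came from RefSeq, GRCm38.p6; the array tables name no build. Alternatives were other background corrections, offsets, scalings, filters and moderation, array weights, the authors' values, a replicate block and the omission of each array. Single values of 1 member gene and 1 cofactor gene are not reported here; the counts include them.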

Additional observations from a re-analysis of the deposited data

How the results depend on the processing

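Hoxa7 stayed higher in Smchd1 null under all 17 alternatives, at log2 differences of 0.69 (no background correction) to 1.91. Most of them could not change its direction. The filters with all arrays kept, the moderation, the replicate block and the authors' values left the difference at 1.54. Leaving out an array could not turn it, as every null value was above every wildtype value. Hoxa7 passed under median scaling alone, so that the count of Hox probes called was 1 there and 0 under the other 16. Without 1 array at a time its difference was 0.92 to 1.91 and its limma adjusted p 0.22 to 1, and with array weights it had 1.00 and an adjusted p of 0.206. The median over the tested Hox probes was 0.05 and became 0.87 where the filter of detection at 0.01 on every array left 2 probes. It was -0.03 to 0.16 without 1 array. Without 1 array at a time Hoxa4 had -0.13 to 0.13, Hoxb2 -0.13 to 0.39, Hoxa13 0.12 to 0.32 and Hoxd11 -0.67 to -0.16. Hoxa4 turned to -0.13 without wildtype replicate 2 and to -0.03 without null replicate 2. Hoxb2 turned to -0.01 with no background correction, -0.05 without wildtype replicate 3, -0.13 without null replicate 2 and -0.11 without null replicate 3, with or without the detection filter. The cause was not tested. Over all probes 9 were called, against 56 with median scaling, 52 with array weights, 3 with no background correction, 2 with that stricter filter, 2 with the replicate block and 31 with no detection filter and without null replicate 3, an alternative chosen after seeing the data. Leaving out 1 array gave 2 to 41, the latter without null replicate 3. Same-numbered arrays did not deviate together, with r of 0.023, 0.038 and -0.007. The labels do not say how the replicates were numbered, so a pairing of the samples is not excluded by these values. With the replicate block none of the 5 Hox probes was called and Hoxa7 had 1.54 (limma adjusted p 0.942). At a detection p under 0.01 the detected Hox probes were 5, 2 and 3 in wildtype replicates 1, 2 and 3 and 2, 4 and 6 in null replicates 1, 2 and 3. Most Hox signals lie at background, where a difference cannot be read.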
